A study of Mus musculus with 4 samples.

Results

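MHC class I molecules display peptides from a cell's own proteins to CD8+ T cells. The 10 genes described here cover that route: the transcriptional regulator Nlrc5, the heavy chains H2-K1 and H2-D1 with their light chain B2m, the peptide transporter Tap1 and Tap2, the loading factor Tapbp, and the immunoproteasome subunits Psmb8, Psmb9 and Psmb10. They were listed by name, and Tap1 and Nlrc5 had already been seen lower in the knockout-labelled libraries of these data. The members were thus chosen by the CKO against control difference itself, so their values in it are a description, and counts of them that passed a test are printed only beside the share of all genes that did. All 10 were among the 18157 genes that passed the filter on low counts, of 53465 counted genes.

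Ventricle RNA of mice at postnatal day 1 was sequenced. The 2 libraries labelled CKO came from Ctnnb1 floxP/floxP mice with the alphaMHC-Cre transgene (alphaMHC-Cre+), which drives Cre recombinase in cardiomyocytes and not in the other cells of the heart. The 2 control libraries came from Ctnnb1 floxP/floxP mice without it (alphaMHC-Cre-), so all 4 share the floxed alleles of Ctnnb1, the gene of β-catenin. Effects of Cre itself and of the deletion cannot be told apart. Nothing in the labels says whether libraries came from separate or pooled animals, so p-values measure only the spread between these libraries, part of which may be technical.

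The libraries held 34027143 to 45651797 counts in genes. Levels are CPM (counts scaled to a common library size, here with TMM factors), and a log2 fold change is CKO over control with its standard error (SE). The SE was derived from edgeR's quasi-likelihood test, as the absolute log2 fold change over the square root of the F statistic. Ctnnb1 itself stood at 527 and 460 CPM in CKO-labelled libraries 1 and 2, against 409 and 434 CPM in controls 1 and 2. Its log2 fold change was 0.23 ± 0.20, higher in 2 of 2 CKO libraries (edgeR adjusted p = 0.532). The count takes in the whole gene and not only the floxed part, so it does not check the labels, and "CKO" here means labelled so. Heart muscle genes were abundant in every library, with 9 cardiomyocyte markers, led by Myh6, summing to 71762 and 81493 CPM in CKO libraries and 59562 and 53924 CPM in controls. Mitochondrially encoded genes took 10.2% and 14.4% of counts in CKO libraries, against 5.25% and 7.65% in controls. CKO library 2 had a female pattern, with Xist at 602 CPM and Kdm5d at 0, and the other 3 libraries had a male one, so the 2 CKO libraries did not come from a single animal. Control 1 stood apart in lymphoid genes, as 18 markers of T cells and thymocytes summed to 5.93 and 4.57 CPM in CKO libraries, against 529 CPM in control 1 and 12.8 CPM in control 2. Results that rest on control 1 are therefore given with and without it.

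In class I presentation, the proteasome cuts proteins into peptides, the TAP transporter carries these into the endoplasmic reticulum, and a loading complex fits them onto a heavy chain paired with B2m. NLRC5 joins DNA-bound factors of the RFX, CREB/ATF and NF-Y families at class I promoters and raises transcription there. Interferons raise most genes of the route, and heart muscle cells are known for low class I levels beside the endothelial and immune cells around them.

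Of the 10 genes, 8 lay below both controls in both CKO libraries, and B2m and Psmb10 overlapped. Over all genes tested, 29.7% lay below both controls and 26.5% above both. The median log2 fold change of the 10 was -1.43, against -0.02 over all genes, and 6 of them were at least 2-fold lower, as were 7.86% of all genes. With edgeR's quasi-likelihood test and Benjamini-Hochberg adjustment over all genes, 0 of the 10 were called lower (background 0%) and 0 higher (background 0.011%). At an unadjusted p under 0.05, 8 were lower (background 11.2%) and 0 higher (background 11.8%), DESeq2 called 6 lower (background 4.68%) and 0 higher (background 6.5%), and limma-voom called 0. Nothing is read from these counts, since this contrast chose the genes.

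**Figure D1:**
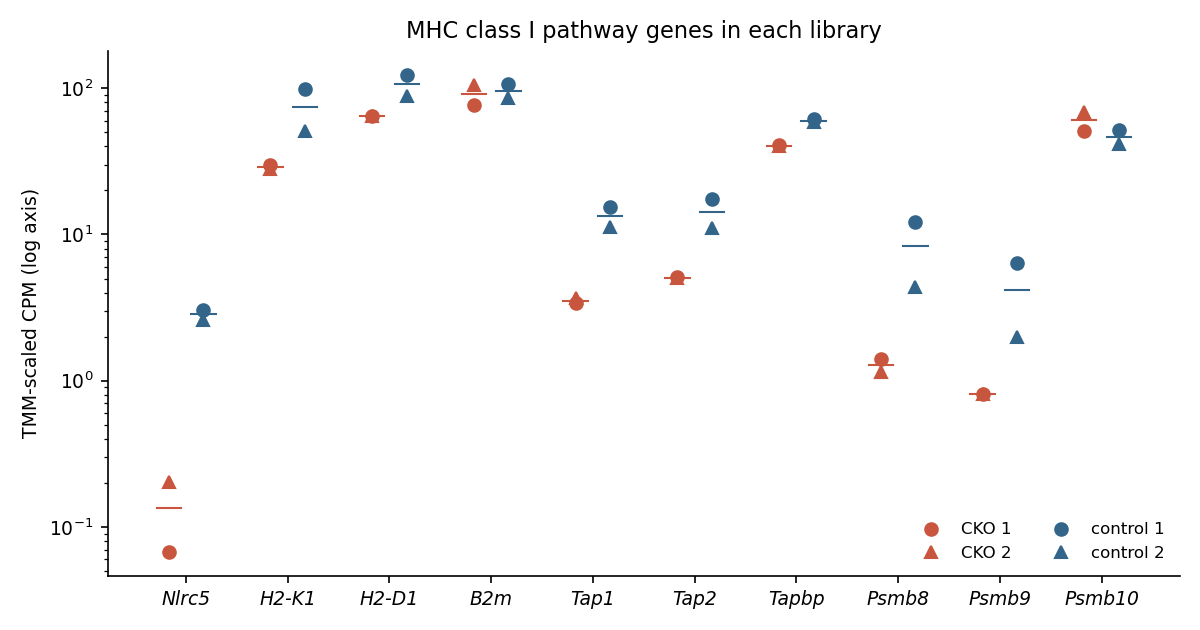
Level of the 10 class I pathway genes in each library, in TMM-scaled CPM on a log axis, with CKO libraries in red left of the controls in blue and a line at each group's mean. Nlrc5 lies lowest in both CKO libraries, at 0.0677 and 0.203 CPM against 3.07 and 2.62 CPM in controls, where its range overlaps that of Psmb9, and only B2m and Psmb10 overlap between the groups.

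Nlrc5, the regulator, was nearly absent from the CKO libraries. It had 3 and 6 counts in CKO libraries 1 and 2, against 143 and 128 counts in controls 1 and 2. In CPM it stood at 0.135 ± 0.0956 in CKO libraries and 2.84 ± 0.319 in controls (SD, n = 2 each). The log2 fold change was -4.45 ± 0.58. Per library size scaled with TMM factors, the summed counts of 9 in CKO libraries and 271 in controls gave a level 23.3-fold lower. The exact 95% interval of 12.1 to 51.5 covers counting error only. The controls lay close together for this gene, and its log2 fold change was -4.33 without control 1 and -4.56 without control 2. With so few counts it moved more with the CKO libraries, to -3.75 without CKO library 1 and -5.34 without CKO library 2. It took place 32 of the 18157 genes, counted from the lowest log2 fold change. Nlrc5 (ENSMUSG00000074151) spans 94434356 to 94527272 on the plus strand of chromosome 8 in GRCm38. The 3 tested protein-coding genes on each side had log2 fold changes of 0.27 (Nup93), -2.30 ± 0.46 (Slc12a3) and -0.28 (Herpud1) on one side, and 0.20 (Cpne2), 0.01 (Fam192a) and -0.11 (Rspry1) on the other. Slc12a3, which encodes a sodium chloride cotransporter of the kidney tubule, had 0.519 and 0.271 CPM in CKO libraries against 1.89 and 2.11 CPM in controls.

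H2-K1 and H2-D1, the classical heavy chains that hold the peptide, were both lower in the CKO libraries, by unequal amounts. H2-K1 stood at 29.6 and 28.1 CPM in CKO libraries, against 98.6 and 51.0 CPM in controls. H2-D1 stood at 64.9 and 64.2 CPM in CKO libraries, against 124 and 88.6 CPM in controls. For each gene the CKO libraries were nearly equal, while control 1 was 1.93 times control 2 for H2-K1 and 1.40 times it for H2-D1. The log2 fold change was -1.37 ± 0.32 for H2-K1 and -0.72 ± 0.21 for H2-D1, and without control 1 it was -0.82 and -0.46. With trends of GC content and length removed it was -1.14 and -0.47. H2-K1 (ENSMUSG00000061232) lies on the minus strand of chromosome 17 at 33996017 to 34000347, and H2-D1 (ENSMUSG00000073411) on its plus strand at 35262730 to 35267499. The heavy chains are a family of near copies: 8.11% of the 50-base words of the longest H2-K1 transcript and 14.3% of those of H2-D1 also occur in other genes, so the authors' counting could have set aside such reads.

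B2m, the light chain common to all class I molecules, did not separate the groups. Its level was 76.6 and 105 CPM in CKO libraries, against 107 and 85.6 CPM in controls, a log2 fold change of -0.08 ± 0.22. Its value and sign depended on the setting, at 0.09 without control 1, 0.17 without CKO library 1 and -0.67 with trends of GC content and length removed. B2m (ENSMUSG00000060802) spans 122147686 to 122153083 on the plus strand of chromosome 2. Patl2 overlaps it there on the other strand and had at most 0.169 CPM.

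The promoters of the heavy chains, B2m and Tap1 are shown because they carry the letters to which these regulators are known to bind. Each window runs from 250 bases before to 50 bases after the start in RefSeq on GRCm38.p6 and is written 5′ to 3′ on the gene's strand. Capitals mark matches, on either strand, to GGGATTCCC (a kappa B site), to AANNGAAA (the core of sites for interferon regulatory factors), to TGACG (a core of CREB/ATF sites and of the X2 box) and to CCAAT (the NF-Y box). No match of one kind overlaps a match of another in these windows. The windows are H2-K1 at chr17:34000298-34000597, H2-D1 at chr17:35262844-35263143, B2m at chr2:122147437-122147736 and Tap1 at chr17:34187306-34187605.
H2-K1: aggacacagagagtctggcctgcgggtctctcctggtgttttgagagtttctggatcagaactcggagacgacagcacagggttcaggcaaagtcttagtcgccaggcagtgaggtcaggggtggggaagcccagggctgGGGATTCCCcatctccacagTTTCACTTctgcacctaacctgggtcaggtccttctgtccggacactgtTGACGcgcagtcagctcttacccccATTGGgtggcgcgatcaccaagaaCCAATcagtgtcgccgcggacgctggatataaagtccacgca
H2-D1: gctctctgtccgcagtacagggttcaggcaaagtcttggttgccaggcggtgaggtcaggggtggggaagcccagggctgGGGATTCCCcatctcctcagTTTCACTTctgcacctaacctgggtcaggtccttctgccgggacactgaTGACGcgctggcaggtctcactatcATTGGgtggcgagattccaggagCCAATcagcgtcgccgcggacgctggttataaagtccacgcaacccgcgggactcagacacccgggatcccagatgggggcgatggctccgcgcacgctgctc
B2m: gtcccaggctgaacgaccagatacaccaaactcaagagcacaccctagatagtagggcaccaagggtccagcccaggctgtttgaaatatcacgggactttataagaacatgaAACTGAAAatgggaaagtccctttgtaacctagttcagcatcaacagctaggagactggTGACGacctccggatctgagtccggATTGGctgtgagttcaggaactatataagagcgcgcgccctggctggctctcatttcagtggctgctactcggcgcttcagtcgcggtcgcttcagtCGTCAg
Tap1: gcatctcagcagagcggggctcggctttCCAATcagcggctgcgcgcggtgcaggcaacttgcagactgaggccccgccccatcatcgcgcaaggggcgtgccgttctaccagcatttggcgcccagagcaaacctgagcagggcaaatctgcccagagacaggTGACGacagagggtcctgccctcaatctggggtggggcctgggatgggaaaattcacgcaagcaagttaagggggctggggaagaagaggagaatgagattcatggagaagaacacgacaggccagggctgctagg

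Promoter windows were on hand for 8 of the 10 genes, with none for Nlrc5 and Tap2. CCAAT was found in 6 of the 8 and in 37.4% of all 32851 mouse windows. TGACG was found in 5 of the 8 and in 20.8% of all windows, and those 5 (H2-K1, H2-D1, B2m, Tap1 and Psmb9) also held CCAAT, as did 7.73% of all windows. AANNGAAA was found in 3 of the 8 (H2-K1, H2-D1 and B2m) and in 23.9% of all windows. GGGATTCCC was found in H2-K1 and H2-D1 and in 116 windows in all (0.353%). The windows that held all 4 kinds numbered 5 of 32851, namely both entries of H2-K1 and those of H2-D1, the class I gene H2-Q7 and Zfp263. In H2-K1 and H2-D1 the 4 kinds came in one order from the far end, kappa B, AANNGAAA, TGACG and then NF-Y boxes, with the kappa B letters first at 110 bases before the start of H2-K1 and 170 bases before that of H2-D1. B2m, which overlapped between the groups, holds AACTGAAA from 137 bases before its start, TGACG from 78 bases before it and an NF-Y box on the other strand. The Tap1 window overlaps that of Psmb9, which is read from the other strand. Tapbp held CCAAT alone, and no match was found in Psmb8 or Psmb10. These letters were chosen with the sequences in view, and a match describes the sequence and not a bound site.

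Tap1 and Tap2, the partner chains of the peptide transporter, were both lower in the CKO libraries. Tap1 had 3.38 and 3.65 CPM in CKO libraries, against 15.4 and 11.3 CPM in controls. Tap2 had 5.10 and 5.04 CPM in CKO libraries, against 17.4 and 11.2 CPM in controls. Neither gene's groups overlap, and the lower control stood at 2.20 times the CKO mean for Tap2 and 3.20 times it for Tap1. Log2 fold changes were -1.92 ± 0.28 for Tap1 and -1.49 ± 0.30 for Tap2, and -1.68 and -1.14 without control 1. With GC content and length trends removed they were -1.52 and -1.13. Tap1 (ENSMUSG00000037321) spans 34187553 to 34197225 and Tap2 (ENSMUSG00000024339) 34203527 to 34216321, both on the plus strand of chromosome 17. Tap1 shares 212 bases at its start with Psmb9 on the opposite strand, and whether the counting used strand is not given in the sources used here.

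Tapbp encodes tapasin, which holds the empty heavy chain beside the transporter while peptides are tried. It stood at 40.8 and 40.2 CPM in CKO libraries, against 61.2 and 58.6 CPM in controls, a log2 fold change of -0.56 ± 0.15 that was -0.53 without control 1 and -0.22 with GC content and length trends removed. Both groups were tight for this gene. Tapbp (ENSMUSG00000024308) spans 33915899 to 33929292 on the plus strand of chromosome 17, where Zbtb22 overlaps 3422 bases of it on the same strand, so reads in that stretch could have been set aside as ambiguous.

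Psmb8 and Psmb9, which replace Psmb5 and Psmb6 in the immunoproteasome, were the lowest after Nlrc5 in log2 fold change over all 4 libraries, while without control 1 Tap1 (-1.68) lay below Psmb9 (-1.30). Psmb8 had 1.40 and 1.15 CPM in CKO libraries, against 12.2 and 4.37 CPM in controls. Psmb9 had 0.812 CPM in each CKO library, against 6.37 and 2.0 CPM in controls. Control 1 was 2.80 times control 2 for Psmb8 and 3.18 times it for Psmb9, the widest gaps between the controls among the 10 genes. The log2 fold change of Psmb8 was -2.70 ± 0.55, and -1.77 without control 1. That of Psmb9 was -2.36 ± 0.61. Psmb8 (ENSMUSG00000024338) spans 34197721 to 34201454 on the plus strand and Psmb9 (ENSMUSG00000096727) 34181987 to 34187764 on the minus strand of chromosome 17, so Psmb9, Tap1, Psmb8 and Tap2 form one block.

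Psmb10, which replaces Psmb7, was not lower. Its level was 51.2 and 69.3 CPM in CKO libraries, against 52.1 and 41.4 CPM in controls, and CKO library 1 lay between the controls. The log2 fold change was 0.37 ± 0.21, between 0.11 and 0.61 over 12 alternative settings. Psmb10 (ENSMUSG00000031897) lies outside the class I region, at 105935735 to 105938444 on the minus strand of chromosome 8, and the antisense gene Gm16156 covers all of it at no more than 0.193 CPM.

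**Figure D2:**
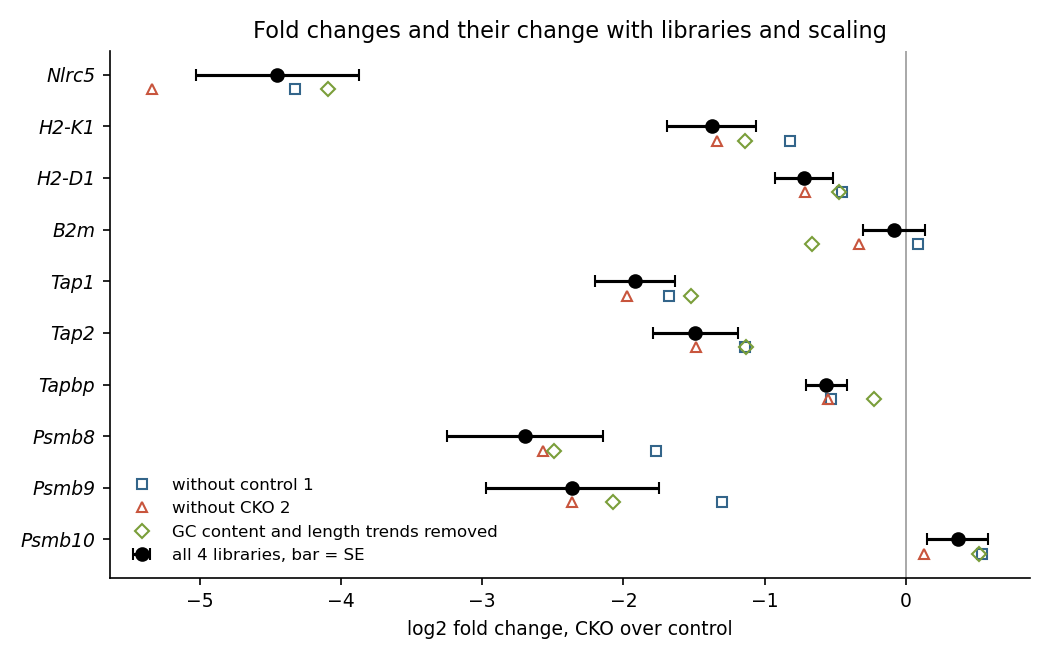
Log2 fold change (CKO over control) of each gene with its SE (black) from all 4 libraries, and the value without control 1 (blue squares), without CKO 2 (red triangles) and with GC content and length trends removed (green diamonds). Leaving out control 1 moves Psmb8 to -1.77, Psmb9 to -1.30 and H2-K1 to -0.82, leaving out CKO 2 moves Nlrc5 to -5.34, and B2m lies on both sides of 0.

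All 10 genes were higher in control 1 than in control 2, by 1.04-fold (Tapbp) to 3.18-fold (Psmb9), while 50.4% of all genes tested were. The 2 CKO libraries lay within 1.1 times of each other for 6 of the 10 genes, and the 2 controls for 1 of them, Tapbp. The fold changes without control 1 were smaller for all 8 genes that lay below both controls. Their direction was kept in 12 of 12 alternative settings.

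Levels can be set between genes only per length, here as CPM per kb of exon. In CKO libraries the order was B2m (106), Psmb10 (35.3), H2-D1 (25.0), Tapbp (11.2), H2-K1 (9.82), Tap2 (1.34), Tap1 (0.642), Psmb8 (0.377), Psmb9 (0.222) and Nlrc5 (0.0159), and no neighbours in it overlapped. In controls it was B2m (112), H2-D1 (41.2), Psmb10 (27.4), H2-K1 (25.5), Tapbp (16.5), Tap2 (3.77), Psmb8 (2.46), Tap1 (2.43), Psmb9 (1.14) and Nlrc5 (0.335). There the ranges of H2-K1 and Psmb10 overlapped, as did those of Psmb8 with Tap2, with Tap1 and with Psmb9. By this measure H2-K1 stood below Tapbp in CKO libraries and above it in controls, and H2-D1 below Psmb10 in CKO libraries and above it in controls. The order between genes depends on the length used, since coding bases were 828 of 3381 exon bases for Psmb8 and 2172 of 5476 for Tap1. It was not drawn up by coding length.

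Each immunoproteasome subunit was next set against the constitutive subunit whose place it takes. Psmb8 made up 1.15% and 0.495% of Psmb8 plus Psmb5 in CKO libraries, against 9.09% and 4.12% in controls, in CPM per kb. Psmb9 made up 0.244% and 0.190% of Psmb9 plus Psmb6 in CKO libraries, against 2.42% and 0.880% in controls. Psmb10 made up 53.7% and 55.9% of Psmb10 plus Psmb7 in CKO libraries, against 66.8% and 62.1% in controls. The CKO shares lay below both controls for each of the 3 pairs, including the Psmb10 pair, in which Psmb7 was higher. Summed over all 6 genes, the immunoproteasome share was 16.8% and 16% in CKO libraries, against 22.8% and 19.7% in controls, and most of it was Psmb10 in every library. By coding length the summed share was 14.5% and 14.5% in CKO libraries, against 23.4% and 18.6% in controls. The size of each pair's share also depends on the length used, and pairs were not computed by coding length. Psmb8 has 828 coding bases of 3381 exon bases, and Psmb9 has 676 of 3660. The shares are given as a description, and an exact permutation test of 2 against 2 libraries could not go below p = 0.333.

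**Figure D3:**
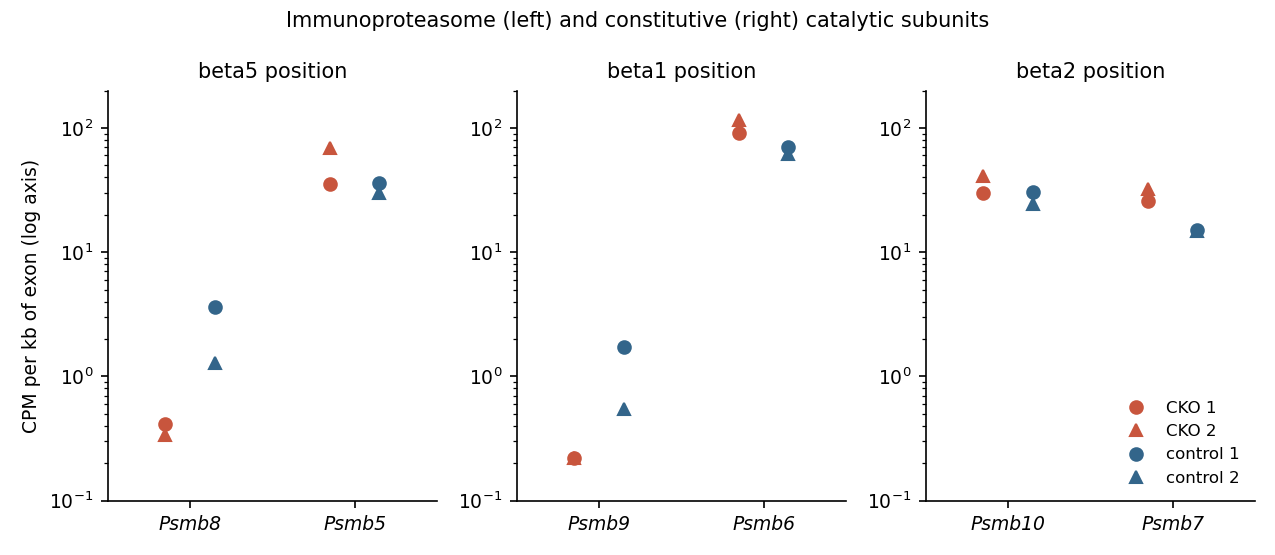
CPM per kb of exon (log axis) of the immunoproteasome subunits Psmb8, Psmb9 and Psmb10, each left of the constitutive subunit that it replaces, with CKO libraries in red left of controls in blue. Psmb8 and Psmb9 lie below both controls in CKO libraries, while Psmb7 lies above both.

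The other genes of the pathway were read from lists drawn up by function, with edgeR's quasi-likelihood test adjusted over all genes. It called 0 genes of any of the 8 lists in either direction. Counts at an unadjusted p under 0.05 and DESeq2 calls, whose backgrounds are given above, follow for each list. In bulk tissue, fewer cells of a type and less RNA per cell cannot be told apart.

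The other class I heavy chains lay mostly lower, with 10 of 14 tested below both controls and 1 above. Their median log2 fold change was -0.76, with 7 lower and 0 higher at an unadjusted p under 0.05 and 6 lower and 0 higher by DESeq2. H2-T24, a nonclassical heavy chain gene, had 3.41 and 2.74 CPM in CKO libraries against 11.9 and 8.89 CPM in controls, a log2 fold change of -1.76 ± 0.30 (lower in 2 of 2 CKO libraries, edgeR adjusted p = 0.0925). H2-T10 had 0.135 and 0.0676 CPM in CKO libraries against 29.0 and 0.797 CPM in controls, and H2-Q6 had 0.226 and 0.0676 CPM in CKO libraries against 7.42 and 0.490 CPM in controls. Both were carried by control 1, with log2 fold changes of -7.09 for H2-T10 and -4.64 for H2-Q6 that were -2.88 and -1.64 without it. In CKO library 2 both lay under 0.0882 CPM, the level of 3 counts there, so few reads set their CKO side. These 2 are also uncertain by sequence, since 31.6% and 32.0% of their 50-base words occur in other genes.

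The helpers of trimming and loading did not lie lower as a list. Of 10 tested, 4 lay above both controls and 1 below, with a median of 0.11, and 2 were higher and 0 lower both at an unadjusted p under 0.05 and by DESeq2. Tpp2, a peptidase of the cytosol, had 83.2 and 96.1 CPM in CKO libraries against 46.2 and 58.7 CPM in controls. Pdia3, the oxidoreductase of the loading complex, had 330 and 392 CPM in CKO libraries against 224 and 255 CPM in controls. Their log2 fold changes were 0.77 and 0.59, whereas that of Tapbpl, a tapasin relative that edits peptides, was -0.65, and -0.24 without control 1.

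The constitutive proteasome core lay on the opposite side from Psmb8 and Psmb9. Of its 14 genes, 12 lay above both controls and 0 below, with a median of 0.61, and 12 were higher at an unadjusted p under 0.05 and 6 by DESeq2, with 0 lower by either. Psmb7 had 88.6 and 110 CPM in CKO libraries against 51.9 and 50.8 CPM in controls, a log2 fold change of 0.95 ± 0.17. The alpha-ring subunits Psma3 and Psma1 had log2 fold changes of 0.85 and 0.71. The activators and assembly factors had a median of 0.05, with 3 of 9 above both controls, 0 below, and 0 in either direction at an unadjusted p under 0.05 and by DESeq2. The assembly chaperones Psmg1, Pomp and Psmg2 led them, with log2 fold changes of 0.43, 0.39 and 0.34.

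Of the transcription factors of class I genes, which include the RFX, CREB/ATF, NF-Y, IRF, STAT and NF-kappa B genes, 11 of 16 lay below both controls and 0 above. Their median was -0.30, with 5 lower and 0 higher at an unadjusted p under 0.05 and 2 lower and 0 higher by DESeq2. Stat2 and Irf9, which form the factor that answers type I interferon, had log2 fold changes of -1.09 and -0.88. Stat2 had 14.3 and 18.8 CPM in CKO libraries against 26.4 and 43.9 CPM in controls. Irf1, an activator of class I promoters, had 9.14 and 11.7 CPM in CKO libraries against 20.8 and 15.4 CPM in controls, a log2 fold change of -0.80.

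Among the interferon receptors and their signalling genes, 6 of 10 lay below both controls and 2 above, with a median of -0.24. At an unadjusted p under 0.05, 2 were lower and 1 higher, and DESeq2 called 2 lower and 0 higher. Socs1, an inhibitor of JAK kinases that interferon itself induces, had 1.38 and 1.12 CPM in CKO libraries against 8.17 and 2.82 CPM in controls. Tyk2, a kinase of the type I receptor, had 26.4 and 25.1 CPM in CKO libraries against 46.5 and 42.9 CPM in controls. The log2 fold changes were -2.13 for Socs1 (-1.17 without control 1), -0.80 for Tyk2 and -0.57 for Socs3.

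The interferon-stimulated genes, of which class I genes are a part, lay lower with the members. Of 30, 27 lay below both controls and 0 above, with a median of -1.37, 23 were lower at an unadjusted p under 0.05 and 20 by DESeq2, with 0 higher by either. Cxcl10, a chemokine, had 0.135 and 0.237 CPM in CKO libraries against 2.29 and 3.60 CPM in controls. Its log2 fold change was -4.00 ± 0.52, and -3.64 without control 2. Mx1, an antiviral effector, had 0.113 and 0.101 CPM in CKO libraries against 1.07 and 5.91 CPM in controls. Ifit1, another, had 0.474 and 0.846 CPM in CKO libraries against 2.23 and 13.5 CPM in controls. Both leaned on control 2, with log2 fold changes of -4.98 for Mx1 and -3.59 for Ifit1 that were -3.28 and -1.77 without it. Mx1 in CKO libraries lay near the level of 3 counts, 0.0657 and 0.0882 CPM, so few reads set its CKO side. The controls were ordered the other way here, since 27 of the 30 were higher in control 2 than in control 1, while all 10 class I members were higher in control 1. The summed level was 179 and 197 CPM in CKO libraries, against 285 CPM in control 1 and 520 CPM in control 2.

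Class II genes, which present peptides on professional antigen-presenting cells and thymic epithelium, rested on control 1. The 10 summed to 5.91 and 6.39 CPM in CKO libraries, against 186 CPM in control 1 and 7.60 CPM in control 2. Of 8 tested, 4 lay below both controls and 0 above, 5 were lower at an unadjusted p under 0.05 and 1 by DESeq2, with 0 higher by either. The median log2 fold change was -3.31, and -0.08 without control 1. Cd74, the invariant chain, had 1.40 and 0.879 CPM in CKO libraries against 59.6 and 1.49 CPM in controls. Ciita, the class II counterpart of Nlrc5, had 0.474 and 0.372 CPM in CKO libraries against 3.60 and 1.63 CPM in controls, a log2 fold change of -2.61 ± 0.53 that was -1.93 without control 1. H2-DMa, which exchanges peptides on class II molecules, had a log2 fold change of -1.35, and -0.06 without control 1. For Cd74 the log2 fold change was -4.72, and -0.38 without control 1.

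**Figure D4:**
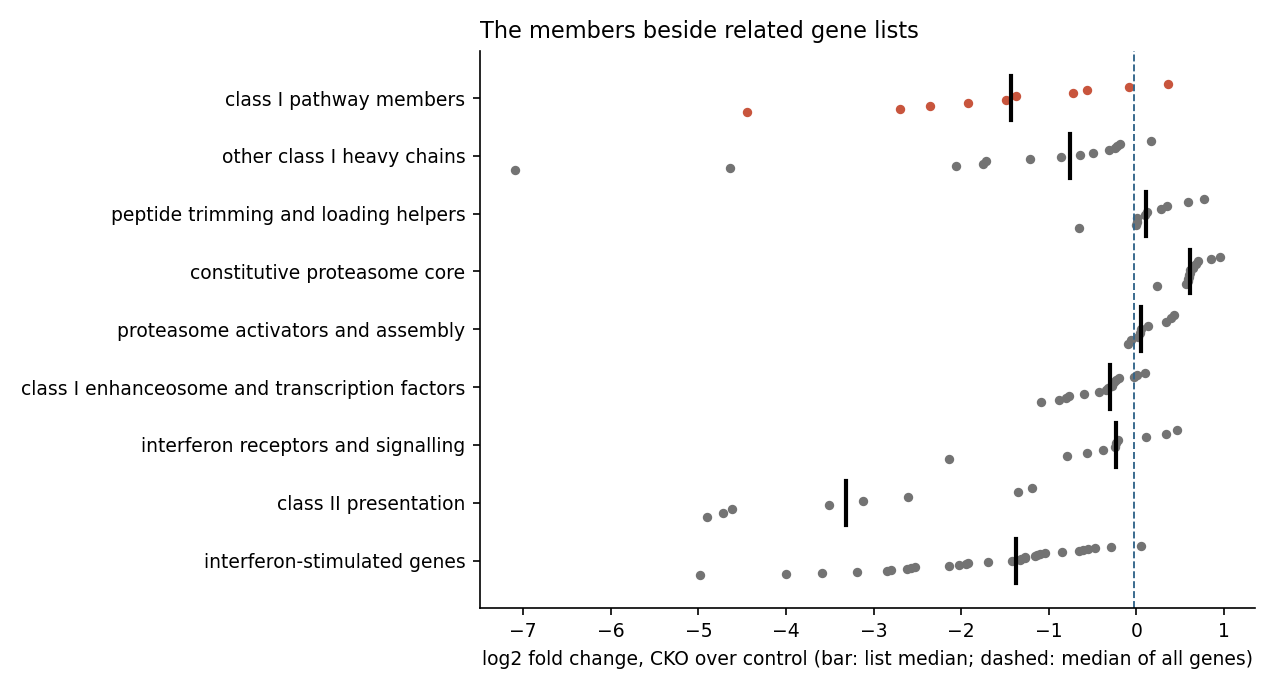
Log2 fold change (CKO over control) of each tested gene, one point per gene, for the 10 class I pathway genes (red) and 8 related lists (grey), with a bar at each median and a dashed line at the median of all genes (-0.02). The medians are -1.43 for the members, -1.37 for the interferon-stimulated genes, -3.31 for class II and 0.61 for the constitutive core.

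Markers of other cells that carry class I moved with the members in control 1. All 18 markers of T cells and thymocytes were highest in control 1, and 1 and 4 of them were at 0 in CKO libraries 1 and 2, against 0 in either control. The most abundant of them, Tcf7, a transcription factor of T cell development, had 2.32 and 2.23 CPM in CKO libraries against 93.0 and 3.84 CPM in controls. All 5 thymic epithelial markers were highest there too, summing to 4.94 and 4.90 CPM in CKO libraries, against 55.1 CPM in control 1 and 5.70 CPM in control 2. In control 1, Foxn1, the master regulator of thymic epithelium, stood at 4.01 CPM and Psmb11, the catalytic subunit of the thymic proteasome, at 4.12 CPM, and in the other 3 libraries neither passed 0.0409 CPM. Ccl25, the most abundant of the 5, had 4.6 and 4.63 CPM in CKO libraries against 15.0 and 5.44 CPM in controls. NK cell markers summed to 0.226 and 0.237 CPM in CKO libraries, against 7.42 CPM in control 1 and 0.347 CPM in control 2, led by the protease gene Gzma at 4.46 CPM in control 1. B cell markers summed to 1.31 and 1.86 CPM in CKO libraries, against 3.65 and 2.92 CPM in controls, led by the receptor chain Cd79b. The part of these cells in the members' values was not tested, and the fold changes without control 1 are those given for each gene.

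Macrophage and endothelial markers, which mark cells of the heart itself that carry class I, overlapped between the groups in their sums, as did those of fibroblasts. Macrophage markers summed to 163 and 212 CPM in CKO libraries and 241 and 181 CPM in controls. Of these, 6 of 10 lay below both controls and 2 above, with a median log2 fold change of -0.55, and DESeq2 called 2 lower and 1 higher where edgeR called 0. The 2 were Cd68, a lysosomal protein of macrophages, with 4.74 and 4.97 CPM in CKO libraries against 14.9 and 11.3 CPM in controls, and Csf1r, their growth factor receptor, with 21.7 and 19.8 CPM in CKO libraries against 36.1 and 31.9 CPM in controls. Their log2 fold changes were -1.43 for Cd68 and -0.71 for Csf1r, and -1.22 and -0.62 without control 1. The most abundant, Lyve1, a receptor of resident macrophages, had 36.3 and 55.8 CPM in CKO libraries against 30.9 and 21.6 CPM in controls, and the 1 called higher was Mrc1, the mannose receptor, at 27.8 and 41.9 CPM in CKO libraries against 18.3 and 17.6 CPM in controls. Endothelial markers summed to 1468 and 1843 CPM in CKO libraries and 1565 and 1675 CPM in controls, with 3 of 9 below both controls and 0 above, and Cdh5, their junction cadherin, was the most abundant. Fibroblast markers, led by Col3a1, summed to 4623 and 4027 CPM in CKO libraries and 2911 and 4544 CPM in controls. Erythroid markers, led by Hbb-bs, summed to 765 and 662 CPM in CKO libraries and 1092 and 1123 CPM in controls. Their part in the members' values was not tested.

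**Figure D5:**
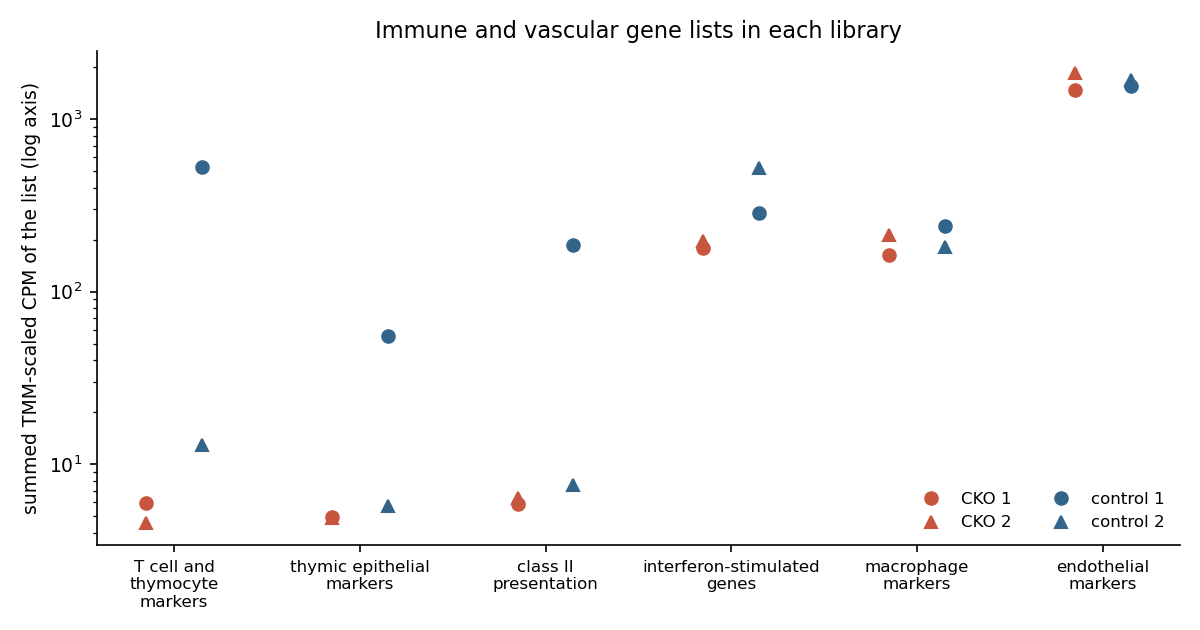
Summed TMM-scaled CPM (log axis) of 6 gene lists in each library, with CKO libraries in red left of controls in blue. The T cell, thymic epithelial and class II lists stand far higher in control 1 (529, 55.1 and 186 CPM) than in the other 3 libraries, whereas the interferon-stimulated genes are highest in control 2 (520 CPM).

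Profiles over the 4 libraries were compared by Euclidean distance of centred log2 CPM, among protein-coding genes with a mean of at least 5 CPM. Nearest to Tap1, among 10832 such genes, were Cbx7 (0.153), Col11a2 (0.174), Sp110 (0.261), Ggnbp1 (0.266) and Phyhd1 (0.277). For Nlrc5, among 10833 such genes, they were Pbld1 (2.18), Acrbp (2.36), Oasl2 (2.46), Ifit3 (2.51) and Dusp26 (2.59). All 5 were more distant than the genes nearest to Tap1. Nlrc5 itself, at a mean of 0.135 CPM in CKO libraries and 2.84 CPM in controls, lay under the cut. Genes at levels as low as its own were therefore not compared, and some of them could lie nearer to it. Oasl2 and Ifit3 are interferon-stimulated genes.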

How the data were processed

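RNA from 4 ventricle samples was made into stranded Kapa libraries after polyA enrichment, per the labels' protocols. The submitters' processing notes name bcl2fastq 2.16.0.10, FastQC 0.11.5, STAR 2.5.3a on GRCm38, HTSeq 0.6.1 and DESeq2, and give neither the annotation release nor the strand setting. The deposited values are raw counts per gene. The authors' deposited table also gives log2 fold changes, of which that of Nlrc5 was -4.46, and p-values, which were not used here. Its normalized values for 4 samples were not used either.

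The analysis used edgeR 4.0.16 under R 4.3.3: filterByExpr, TMM, the quasi-likelihood test without covariates and Benjamini-Hochberg adjustment over 18157 genes at 0.05. The smallest adjusted p above this threshold, 0.0925, was shared by 616 genes. DESeq2 1.42.0, limma 3.58.1 and other settings were alternatives. The fit was tested on simulated data. Of 53465 gene identifiers, 53360 matched GENCODE vM21, and 5 HTSeq summary categories were left out. The limit of a gene with no count, at 3 counts, is 0.0657 and 0.0882 CPM in CKO libraries and 0.0693 and 0.0672 CPM in controls, without TMM factors. Reads with more than 1 place made up 23.9% and 29.7% in CKO libraries and 19.4% and 21.0% in controls.

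The 10 genes and all lists were chosen with earlier results of these data known. Named list genes are up to 3 per list with the largest absolute log2 fold change among genes of mean at least 1 CPM whose groups do not overlap. Slc12a3 and the other neighbours of Nlrc5 are its 3 nearest tested protein-coding genes on each side. Marker lists are given by their sums and most abundant gene. Foxn1, Psmb11, Cd68, Csf1r, Mrc1, Xist and Kdm5d were named after their values were seen.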

Additional observations from a re-analysis of the deposited data

How the results depend on the processing

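The members' median log2 fold change (-1.43) kept its direction in every alternative, at -1.77 to -0.98 with 1 library left out and -0.98 without control 1. Between 8 and 9 members lay below every control library under DESeq2's size factors, library totals, GC content and length trends removed and each library left out, which leaves 1 control where a control is left out. Over all genes, 2 were called higher and 0 lower by edgeR. DESeq2 called 1020 higher and 734 lower, limma-voom 0 and 0 (2087 and 1948 at an unadjusted p under 0.05), and edgeR without the filter 313 and 241. With the replicate number as a block 9 were called higher and 9 lower, or 0 and 0 with GC content and length trends removed as well. The labels do not say what a number marks, and deviations of same-numbered libraries correlated at -0.116. A crossed pairing, chosen after seeing the data, called 501 and 440. The members' median was -1.38 with the block, -1.13 with GC content and length trends removed and -1.10 with both. With 1 library left out, 0 to 1047 genes were called higher and 0 to 640 lower, the most without CKO library 1.

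Library totals alone moved the median of all genes by -0.24, and the list medians to -1.0 (heavy chains), -0.11 (trimming and loading), 0.36 (core), -0.19 (activators), -0.54 (transcription factors) and -0.47 (interferon receptors). GC content and length trends removed gave 0.24 for trimming and loading, 0.14 for activators, -0.18 for transcription factors and -0.19 for receptors, and 0.23, 0.13, -0.20 and -0.19 with the block. Heavy chains were at -1.28 without the filter, over 18 genes in place of 14. The genes added were H2-Q1, H2-Q2, H2-T3 and H2-M2, each highest in control 1. With 1 library left out, medians ranged over -0.89 to -0.54 (heavy chains), 0.053 to 0.24 (trimming and loading), 0.41 to 0.84 (core), 0.061 to 0.12 (activators), -0.39 to -0.25 (transcription factors), -0.34 to -0.22 (receptors), -4.24 to -0.081 (class II) and -1.70 to -1.0 (interferon-stimulated genes). The causes were not tested. By coding length the immunoproteasome share differed by -6.51 percentage points, against -4.88 by exon length and -6.43 to -3.33 with 1 library left out. Counts of 3 and 6 limit the precision of Nlrc5 in CKO libraries.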
